A study of Homo sapiens with 2 samples.

Results

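The ID proteins and a set of genes of bone morphogenetic protein (BMP) signalling are described here as 10 genes: the ligands BMP2 and BMP4, the receptor BMPR2, the decoy receptor BAMBI, the inhibitory SMADs SMAD6 and SMAD7, and the inhibitors of DNA binding ID1, ID2, ID3 and ID4. Members were all probe sets of the value table whose single gene symbol in the array annotation was one of these 10, which gave 24 probe sets of 54675. The 10 genes were chosen on the differences between these same arrays, with results known, so the differences are given as a description. A further probe set carried ID2 together with a second symbol and was left out. The study profiled PLC/PRF/5 cells, a long-established line from a human liver carcinoma, with 2 Affymetrix arrays. One array held chemoresistant hepatospheres, which were PLC/PRF/5 spheroids treated with cisplatin, a DNA-crosslinking platinum drug, in combination with doxorubicin, an anthracycline drug acting on topoisomerase II. Differentiated PLC/PRF/5 cells were on the other array, obtained from spheroids by adding fetal bovine serum (FBS) and letting the cells attach. Whether the differentiated cells came from drug-treated spheroids is not stated in the labels, so drug, serum and attachment cannot be told apart here. Each group had 1 array with no replicate, no difference was tested, and no value carries an error.

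BMP ligands bind a pair of type I and type II receptor kinases at the cell surface. The activated receptors phosphorylate SMAD1, SMAD5 and SMAD9, which join SMAD4 and enter the nucleus to switch on target genes. Among the best known targets are the ID genes, whose products pair with basic helix-loop-helix factors such as the E proteins and keep them off DNA, and the genes of the pathway's own brakes, SMAD6, SMAD7 and BAMBI. In liver, BMP signalling is known for controlling hepcidin, the iron hormone, and ID proteins are often linked to growth and an undifferentiated state.

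Values are MAS5 signals per probe set, a brightness on a linear scale that the authors scaled across each array. A difference is log2 signal in hepatospheres minus log2 signal in differentiated cells. Signals under 84.1, the higher of the arrays' medians, were treated as a floor, and a probe set that reached this floor on at least 1 array was counted as measured. Where a probe set was under the floor on 1 array, the fold is a lower bound and is given as "at least". All 10 genes and 18 of the 24 probe sets were measured. Genes are counted by their brightest probe set, and signals of different probe sets are not compared with each other.

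All 4 ID genes were at least 2-fold lower in hepatospheres, and ID4 was under the floor there. Of the remaining members, SMAD7 and BMPR2 were also over 2-fold lower and BMP4 was 2.29-fold higher. BMP2, SMAD6 and BAMBI lay within 2-fold. In all, 6 of 10 members were at least 2-fold lower, against 8.83% of the 12766 genes measured, and 1 was at least 2-fold higher, against 12.5%. Nothing is read from these shares, since the same values chose the members. The median difference of the members was -1.09, and that of all genes measured was 0.05. In RNA from whole cultures, fewer cells expressing a gene and less of its RNA per cell cannot be told apart.

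The bases just upstream of the starts of the 4 ID genes are printed because these genes were all at least 2-fold lower. RefSeq promoter windows of build GRCh38.p14 were found for 9 of the 10 members, and the 250 bases before the annotated start are given 5′ to 3′ in gene direction. The window of ID1 is at chr20:31605039-31605288 on the plus strand, ID2 at chr2:8681806-8682055 on the plus strand, ID3 at chr1:23559502-23559751 on the minus strand and ID4 at chr6:19837120-19837369 on the plus strand. Capitals mark CAGAC, a short element bound by SMAD4, CCAAT, the CCAAT box, and TATAA, the core of a TATA box, each on either strand.
ID1: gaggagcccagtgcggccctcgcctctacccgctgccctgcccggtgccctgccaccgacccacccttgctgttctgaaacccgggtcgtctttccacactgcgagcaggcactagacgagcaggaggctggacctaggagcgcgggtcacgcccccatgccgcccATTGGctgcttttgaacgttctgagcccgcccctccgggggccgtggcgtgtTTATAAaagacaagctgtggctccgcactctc
ID2: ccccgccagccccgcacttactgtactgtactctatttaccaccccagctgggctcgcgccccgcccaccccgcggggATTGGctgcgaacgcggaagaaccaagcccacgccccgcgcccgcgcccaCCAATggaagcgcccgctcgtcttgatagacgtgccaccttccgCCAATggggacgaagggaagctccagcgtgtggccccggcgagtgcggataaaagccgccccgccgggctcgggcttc
ID3: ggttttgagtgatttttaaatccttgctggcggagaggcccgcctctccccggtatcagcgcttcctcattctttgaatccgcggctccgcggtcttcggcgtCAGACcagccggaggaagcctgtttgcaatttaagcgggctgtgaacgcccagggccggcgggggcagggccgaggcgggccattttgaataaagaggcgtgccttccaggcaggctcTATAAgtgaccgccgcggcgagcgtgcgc
ID4: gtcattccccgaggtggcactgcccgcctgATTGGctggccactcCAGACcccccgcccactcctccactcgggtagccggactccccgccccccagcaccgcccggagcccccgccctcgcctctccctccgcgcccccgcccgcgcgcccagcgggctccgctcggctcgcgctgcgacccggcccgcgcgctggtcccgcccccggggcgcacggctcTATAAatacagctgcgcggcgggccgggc

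GGCGCC, a GC-rich element bound by SMAD1 and SMAD5, was searched as well and did not occur in these 4 windows, while 16.4% of all 35116 RefSeq windows of the same length held it. CAGAC occurred once in the ID3 window, 147 bases before the start, and once in the ID4 window, 205 bases before the start. It was held by 38% of all windows. CCAAT occurred 3 times before ID2, once before ID1 and once before ID4, and 32% of all windows held it. TATAA lay 29 bases before the start of both ID3 and ID4. Before ID1 the run TTATAA matched on both strands, from 32 bases before the start. TATAA was held by 18.9% of all windows. The E-box CANNTG, to which basic helix-loop-helix factors bind, occurred once before ID2 and once before ID4, and 61.8% of all windows held it. These are matches of letters in short windows and say nothing about binding.

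**Figure D1:**
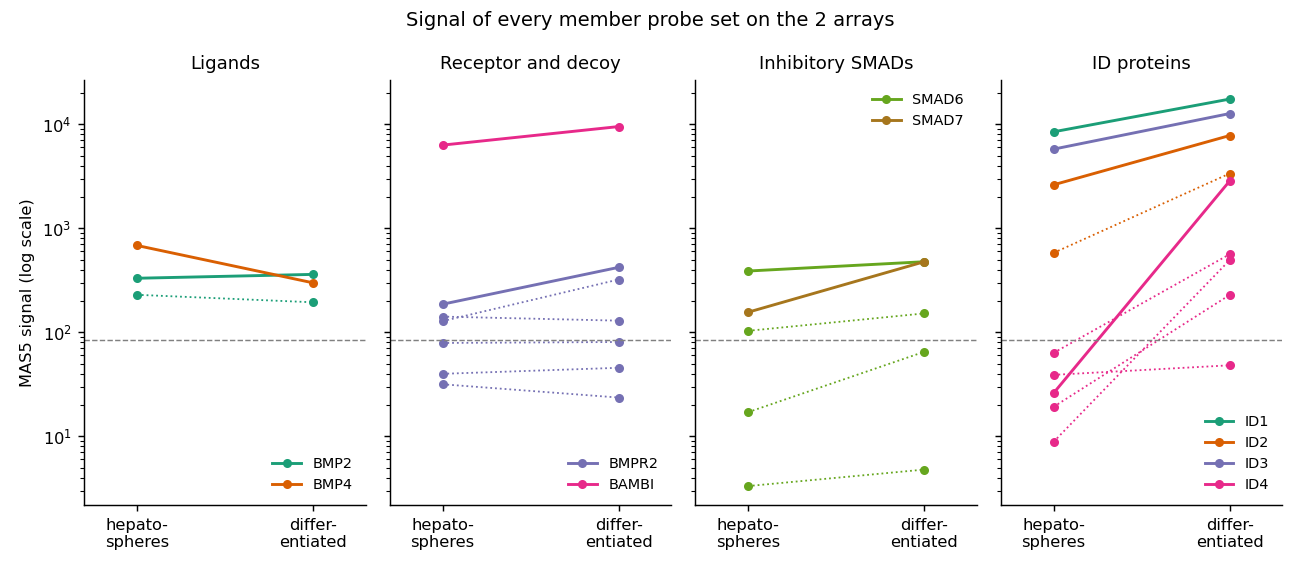
MAS5 signal (log scale) of all 24 member probe sets in hepatospheres (left) and differentiated cells (right), 1 array each, with 1 line per probe set. Solid lines are the brightest probe set of a gene, dotted lines its others, and the dashed line is the floor of 84.1. The ID1, ID2 and ID3 lines stay far above the floor on both arrays, and 4 of the 5 ID4 lines cross it.

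ID4, present above the floor in differentiated cells alone, encodes the ID protein best known from neural and mammary cells. Its brightest probe set, 209291_at, read 26.0 in hepatospheres and 2845 in differentiated cells, so it was at least 33.8-fold lower in hepatospheres. Probe set 226933_s_at read 8.85 in hepatospheres and 494 in differentiated cells, at least 5.87-fold lower. Probe set 209293_x_at read 63.4 in hepatospheres and 562 in differentiated cells, at least 6.69-fold lower. All of these were above the floor in differentiated cells and under the floor in hepatospheres. Probe set 209292_at read 19.2 in hepatospheres and 228 in differentiated cells, at least 2.71-fold lower. The fifth ID4 probe set, 229386_at, was under the floor on both arrays, at 38.9 in hepatospheres and 48.1 in differentiated cells, and gives no fold. The bound for the brightest probe set was -5.08 on the log2 scale. It depends on the floor and on the probe set, and was -4.22 for a floor set at the 60th percentile of signal, -5.84 for one at the 40th, and -2.95 when the gene's probe sets were averaged.

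ID2, the ID protein also known for restraining the retinoblastoma pocket proteins, was lower on both of its probe sets. The brighter, 201565_s_at, read 2618 in hepatospheres and 7786 in differentiated cells, a 2.97-fold lower signal in hepatospheres. The other, 201566_x_at, read 579.9 in hepatospheres and 3359.7 in differentiated cells, 5.79-fold lower. Both probe sets were far above the floor on both arrays, so they agree in direction while the sizes differ by nearly 1 log2 unit, at -1.57 and -2.53. Names ending in _s_at and _x_at mark probes that can match several transcripts or cross-match, and ID2 has no probe set without such an ending.

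ID3 and ID1, which are often induced together as immediate targets of BMP and serum, were close to 2-fold lower. ID3, on 207826_s_at, read 5763 in hepatospheres and 12671 in differentiated cells, 2.20-fold lower in hepatospheres. ID1, on 208937_s_at, read 8458 in hepatospheres and 17458 in differentiated cells, 2.06-fold lower. Each of these genes rests on a single probe set, and both signals stayed bright in hepatospheres. ID1 lay just past the 2-fold threshold, at -1.05 on the log2 scale, with 8.01% of all genes measured lower than it, and ID3 at -1.14 with 6.75%. Taken by probe set, 8 of the 9 ID probe sets were at least 2-fold lower and the ninth was under the floor on both arrays, where the share among all 23825 measured probe sets was 9.59%. Of these 8, the 4 of ID4 reached the floor through differentiated cells alone, so their count is partly set by that filter and nothing is read from it. Probe sets of 1 gene share the same RNA and are not replicates.

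**Figure D2:**
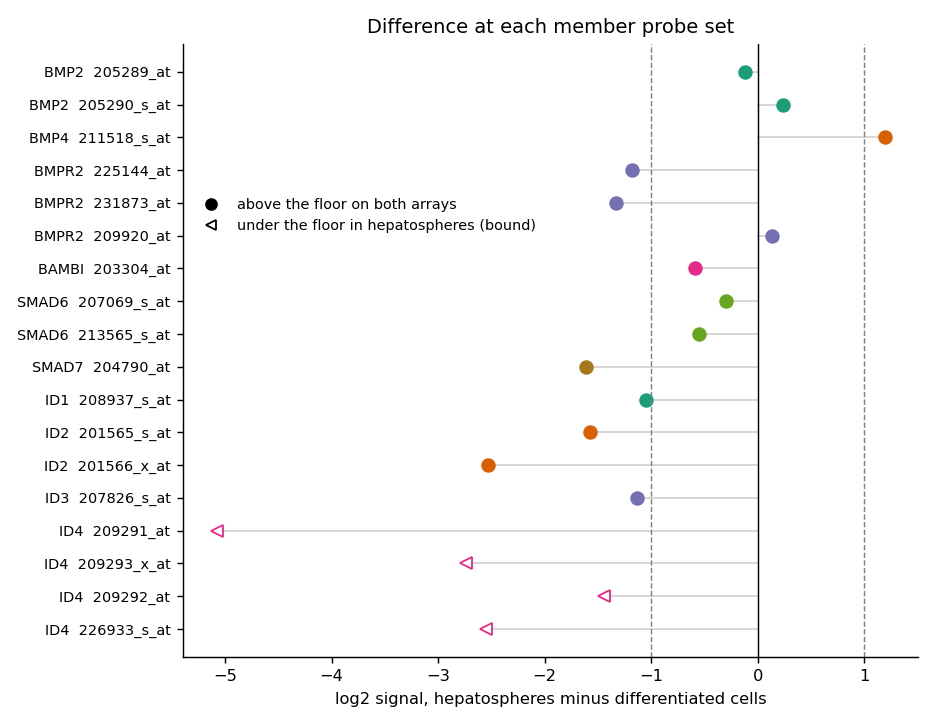
Log2 difference (hepatospheres minus differentiated cells) of the 18 member probe sets that reached the floor, 1 array per group. Filled circles were above the floor on both arrays, open triangles are ID4 probe sets under the floor in hepatospheres and mark bounds, and dashed lines mark 2-fold. The ID probe sets lie between -5.08 and -1.05, and BMP4 at 1.19 is the sole member past 2-fold on the other side.

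The inhibitory SMADs, which block receptors and SMAD complexes in a negative feedback, differed from each other in size. SMAD7, which restrains both the BMP and the TGF-beta branch, read 156 in hepatospheres and 476 in differentiated cells on its single probe set, 204790_at. That was 3.06-fold lower in hepatospheres, and 2.15% of all genes measured were lower than SMAD7. SMAD6, which acts mainly on the BMP branch, lay within 2-fold as deposited and at -1.33 under scaling to the poly(A) control RNAs. Its brightest probe set, 207069_s_at, read 388 in hepatospheres and 476 in differentiated cells, a difference of -0.30. Probe set 213565_s_at read 103 in hepatospheres and 152 in differentiated cells, a difference of -0.56. Both lay in the same direction at sizes that many genes show, with 32.5% of all genes measured lower than SMAD6. The remaining SMAD6 probe sets were under the floor on both arrays, 209886_s_at at 17.0 in hepatospheres and 64.8 in differentiated cells, and 209887_at at 3.32 in hepatospheres and 4.78 in differentiated cells.

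BAMBI, a membrane protein shaped like a type I receptor but without a kinase domain, read 6299.9 in hepatospheres and 9498 in differentiated cells on 203304_at. The signal was high on both arrays and 1.51-fold lower in hepatospheres, at -0.59, with 20.1% of all genes measured lower. Together, the 7 members known as BMP-induced genes (ID1, ID2, ID3, ID4, SMAD6, SMAD7 and BAMBI) all had differences below 0, 5 of them past 2-fold, with a median of -1.14. Among all genes measured 47.3% were below 0 and 8.83% at least 2-fold lower, and the same values chose the members. Relative to the all-gene median, the median of the 7 was -1.18 as deposited and -1.24 under poly(A) scaling.

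BMPR2, the type II receptor that activates the type I receptors, gave a split picture. Its brightest probe set, 225144_at, read 186 in hepatospheres and 421 in differentiated cells, 2.26-fold lower in hepatospheres. Probe set 231873_at read 128 in hepatospheres and 321 in differentiated cells, 2.51-fold lower. Probe set 209920_at, by contrast, read 141 in hepatospheres and 129 in differentiated cells, a difference of 0.13. The probe sets thus disagreed, and with the mean over its 3 measured probe sets BMPR2 stood at -0.79, within 2-fold. The other 3 probe sets were under the floor on both arrays, at signals from 31.6 to 78.9 in hepatospheres and from 23.6 to 80.6 in differentiated cells.

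Of the ligand genes, BMP4 was over 2-fold higher and BMP2 differed little. BMP4 read 683 in hepatospheres and 299 in differentiated cells on its single probe set, 211518_s_at, 2.29-fold higher in hepatospheres. At 1.19 it lay above 90.4% of all genes measured, although it stood at 0.94 after median centring and at 0.16 under scaling to the poly(A) control RNAs. Relative to the median of all genes it was 1.15 as deposited and 1.09 under that scaling. BMP2, a close relative of BMP4 that binds the same receptors, showed signals of 331 in hepatospheres and 360.1 in differentiated cells on 205289_at, a difference of -0.12. Its other probe set, 205290_s_at, read 229 in hepatospheres and 194 in differentiated cells, a difference of 0.24. The BMP2 probe sets thus disagreed in sign at sizes well under 2-fold.

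**Figure D3:**
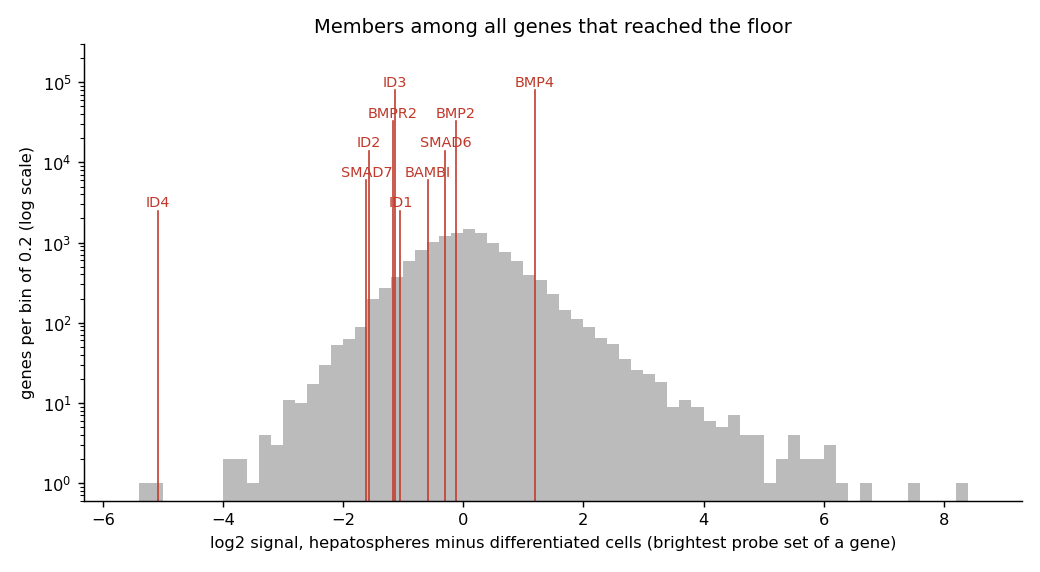
Histogram of the log2 difference (hepatospheres minus differentiated cells) of the 12766 genes that reached the floor, each by its brightest probe set, with genes per bin on a log scale and red lines at the 10 members. ID4 lies far to the left at its bound of -5.08, the other ID genes and SMAD7 on its lower shoulder, and BMP2 and SMAD6 near its centre.

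The scaling of the arrays sets the level against which these differences are read. The probe sets of the poly(A) control RNAs, a kind made to be spiked in during labelling, were 2.04-fold brighter on the hepatosphere array. That is the median of 24 probe sets picked by name, and whether each stood above background was not examined. Scaling to them moved the all-gene median by -0.97 (log2), and median centring moved it by -0.23. Under the poly(A) scaling 9 of 10 members were at least 2-fold lower, but 46.5% of all genes were too. Relative to the median of all genes, the members' median was -1.14 as deposited, -1.16 after median centring and -1.19 after poly(A) scaling. The directions given are therefore relative to the bulk of genes. The ACTB 3′ to 5′ signal ratio, a sign of RNA length, was 2.64 in hepatospheres and 1.48 in differentiated cells. The same ratio for GAPDH was close to equal, at 1.04 in hepatospheres and 0.99 in differentiated cells. The part of RNA length in the results was not tested.

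**Figure D4:**
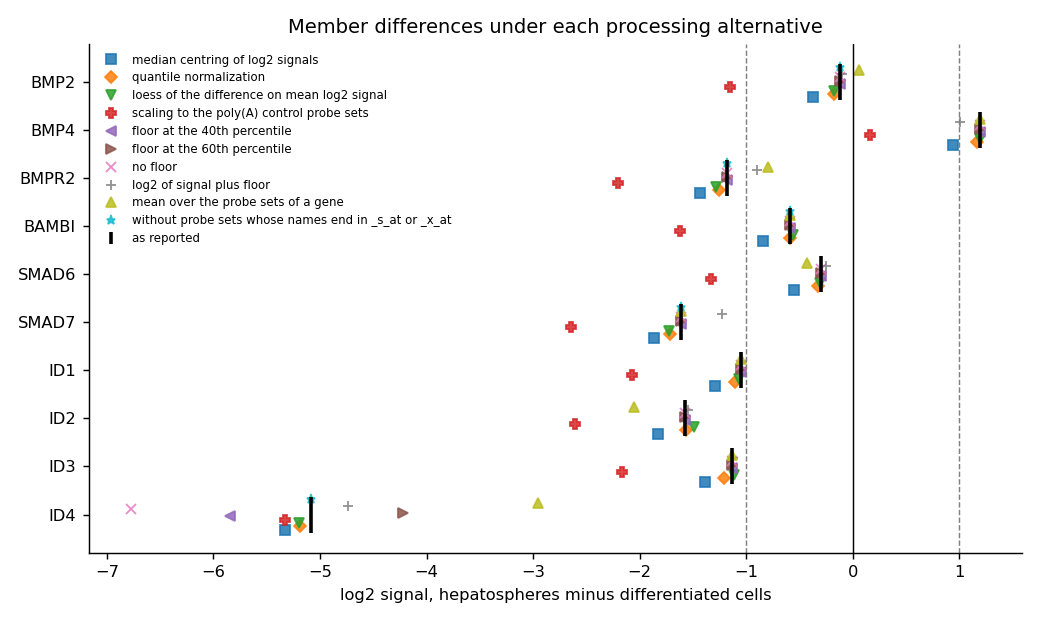
Log2 difference (hepatospheres minus differentiated cells) of each member as reported (black bars) and under up to 10 processing alternatives (symbols), with 2-fold marked by dashed lines. ID1, ID2, ID3, ID4 and SMAD7 stay below -1 under each alternative that gave a value, and BMP4 moves as low as 0.16 under poly(A) scaling.

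Markers of hepatocytes and of other cell types were set beside the members. All 6 hepatocyte markers named on the array were above the floor on both arrays, with a summed signal of 115503 in hepatospheres and 71934 in differentiated cells. Such sums are weighted towards the brightest probe sets. APOA1 was lower in hepatospheres, at 2699 against 3153 in differentiated cells, and each of the other hepatocyte markers was higher. Of 6 fibroblast and stellate cell markers, 4 reached the floor in hepatospheres and 1 in differentiated cells, with summed signals of 4080.0 and 429.9. LUM, a matrix proteoglycan, read 2677 in hepatospheres and 1.14 in differentiated cells. COL3A1, a fibrillar collagen chain, read 679 in hepatospheres and 42.6 in differentiated cells, while PDGFRB and ACTA2 were under the floor on both arrays. Among 5 endothelial markers PECAM1 alone reached the floor, on both arrays, and CDH5, VWF, KDR and TEK did not. The endothelial sums were 3862 in hepatospheres and 3458 in differentiated cells. Among 4 blood cell markers LYZ and HBB reached the floor on both arrays and PTPRC and CD3E on neither, and the sums were 10761 in hepatospheres and 6627 in differentiated cells. The part of these genes in the member differences was not tested.

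Other genes around the pathway were taken from 8 lists of 78 genes, of which 74 were named on the array and 49 were measured. The 6 lists of BMP and SMAD genes held 36 of these, with 6 at least 2-fold higher and 2 at least 2-fold lower, where 12.5% and 8.83% of all genes measured were. Their median was 0.14, close to that of all genes. Of the higher genes, SMAD9, NBL1 and CHRDL1 reached the floor in hepatospheres alone. That count is partly set by this filter, and nothing is read from it. The 2 lists of helix-loop-helix factors and cell cycle inhibitors held 13, with 5 at least 2-fold higher and 0 lower as deposited, and a median of 0.80. That median is the bound of HEYL, and CDKN1C among the 5 is a bound as well. Both reached the floor in hepatospheres alone, so nothing is read from this count or median. ASCL2, a helix-loop-helix factor, passed 2-fold lower after median centring, at -1.05, and after loess scaling, at -1.01. Poly(A) scaling lowers all of these values with the bulk of genes. Relative to the all-gene median the 36 stood at 0.10 as deposited, and the 33 of them measured under that scaling also stood at 0.10. The 13 stood at 0.76 as deposited and at 0.75 under that scaling.

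Among 5 measured ligands outside the members, 1 was at least 2-fold higher and 0 were lower, where 12.5% and 8.83% of all genes measured were. BMP6, the ligand known for setting hepcidin in the liver, read 2162 in hepatospheres and 276 in differentiated cells, 7.83-fold higher on a single probe set. Its difference was 2.97 on the log2 scale as deposited and 1.94 under poly(A) scaling. BMP8B and GDF7 stood at 0.74 and 0.67, and GDF2, which was under the floor in differentiated cells, at a bound of 0.37. The measured BMP8B probe sets disagreed in sign, spanning -0.25 to 0.85.

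The SMADs that carry the BMP signal went different ways. SMAD1 read 522 in hepatospheres and 1174 in differentiated cells, 2.25-fold lower, and its second probe set stood at -0.96. SMAD9, by contrast, read 375 in hepatospheres and 72.3 in differentiated cells, under the floor, and was at least 4.46-fold higher. SMAD5, at 1650.1 in hepatospheres and 1002 in differentiated cells, and SMAD4, at 954 in hepatospheres and 552 in differentiated cells, lay within 2-fold at 0.72 and 0.79. The measured probe sets spanned -0.07 to 0.76 for SMAD5 and 0.16 to 0.79 for SMAD4. Under poly(A) scaling SMAD5 and SMAD4 read -0.31 and -0.24. Relative to the all-gene median they stood at 0.62 and 0.69 with it, against 0.67 and 0.74 as deposited.

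Receptors and antagonists were mostly within 2-fold or higher. Of 4 measured receptors and co-receptors, ACVR2B, a type II receptor shared with activins, was 2.72-fold higher, at 765 in hepatospheres and 281 in differentiated cells, although another of its probe sets stood at -0.22. ACVR1, a type I receptor, ACVR2A, a type II receptor, and RGMB, a BMP co-receptor, lay at 0.19, 0.05 and 0.81. The measured probe sets spanned -0.02 to 0.05 for ACVR2A and 0.81 to 1.59 for RGMB. BMPR1A was not analysed here. Of 8 measured secreted antagonists and modulators, 3 were at least 2-fold higher and 0 lower by their brightest probe sets. Among all genes measured 12.5% were higher and 8.83% lower by that much. NBL1, a DAN family antagonist, read 546 in hepatospheres and 81.3 in differentiated cells, at least 6.49-fold higher. CHRDL1, a chordin-like protein, was at least 2.28-fold higher, at 191 in hepatospheres and 24.8 in differentiated cells. NBL1 and CHRDL1 reached the floor in hepatospheres alone, so the count is partly set by that filter and nothing is read from it. CHRD, or chordin, read 630.1 in hepatospheres and 301 in differentiated cells, 2.10-fold higher, and FSTL3 stood at 0.65. FST, or follistatin, named after its values were seen, read 6436 in hepatospheres and 9047 in differentiated cells on its brightest probe set, a difference of -0.49, and its 3 measured probe sets spanned -2.34 to -0.49. Under poly(A) scaling CHRD, CHRDL1 and ACVR2B lay within 2-fold, at 0.04, 0.41 and 0.41, while NBL1 stayed at 1.72.

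Inside the cell, the 11 regulators of SMAD signalling all lay within 2-fold by their brightest probe sets, with a median of -0.27. The ubiquitin ligases SMURF2 and SMURF1, which mark SMADs and receptors for degradation, were at -0.66 and 0.50, and the measured SMURF1 probe sets spanned 0.35 to 1.55. The phosphatase PPM1A and the SMAD corepressor SKI were at -0.42 and -0.41, and the measured PPM1A probe sets disagreed in sign, spanning -0.42 to 0.78. Under poly(A) scaling 8 of the 11 were at least 2-fold lower, where 46.5% of all genes were, and relative to the all-gene median the list stood at -0.37, against -0.32 as deposited.

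BMP target genes outside the members were mostly dim. Of 9 listed, 4 were measured, with 1 at least 2-fold lower and 0 higher, where 8.83% and 12.5% of all genes measured were. ATOH8, a helix-loop-helix factor induced by BMP in liver cells, read 127 in hepatospheres and 269 in differentiated cells, 2.11-fold lower, while its other measured probe set was within 2-fold at -0.38. HEY1, DLX2 and MSX1 stood at 0.85, -0.37 and a bound of 0.69. HAMP, which encodes hepcidin, was under the floor on both arrays, at 39.95 in hepatospheres and 53.2 in differentiated cells, and gives no fold.

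**Figure D5:**
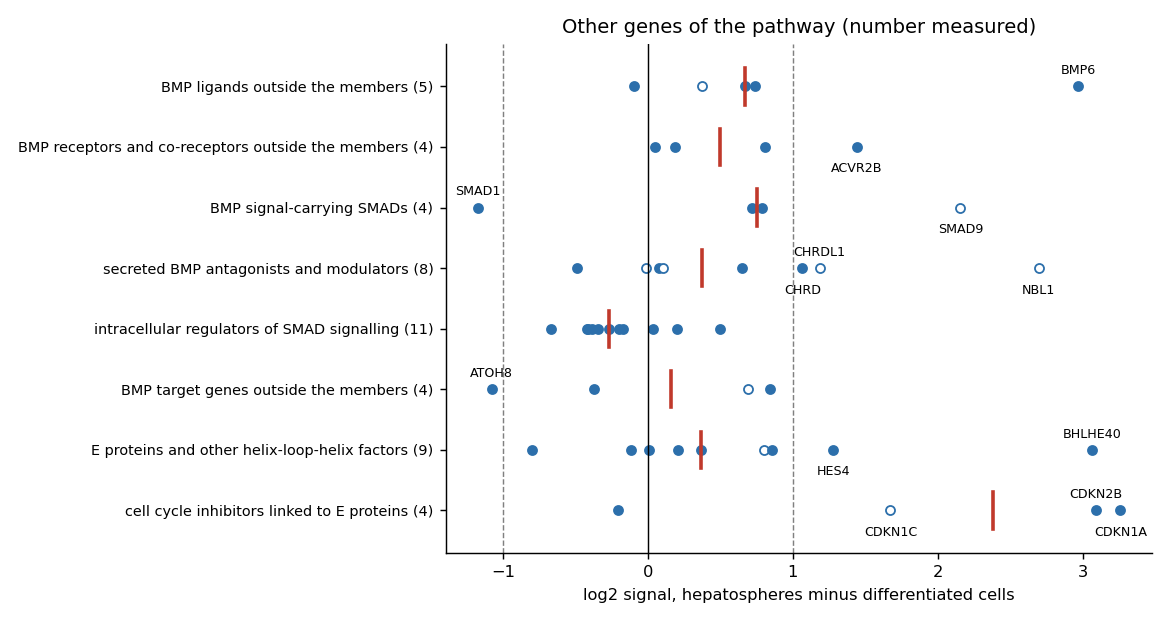
Log2 difference (hepatospheres minus differentiated cells) of the 49 measured genes of the 8 pathway lists, with 1 array per group. Filled points were above the floor on both arrays, open points are bounds, red bars are list medians, dashed lines mark 2-fold, and genes past 2-fold are named, with SMAD1 and ATOH8 to the left and 11 genes to the right.

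The E proteins, the partners that ID proteins sequester, lay within 2-fold. TCF3 read 1408 in hepatospheres and 1527 in differentiated cells, a difference of -0.12. TCF4 read 304 in hepatospheres and 236 in differentiated cells, a difference of 0.37, and TCF12 read 2925 in hepatospheres and 2529 in differentiated cells, a difference of 0.21. These signals were present on both arrays and their probe sets did not all agree in sign, spanning -0.12 to 0.69 for TCF3, -0.13 to 0.37 for TCF4 and -0.16 to 0.33 for TCF12. Among other helix-loop-helix factors, the stress-responsive repressor BHLHE40 read 6789 in hepatospheres and 810.1 in differentiated cells, 8.38-fold higher. HES4 was 2.43-fold higher, at 1442 in hepatospheres and 593 in differentiated cells. With poly(A) scaling HES4 lay within 2-fold, at 0.25, while BHLHE40 stayed at 2.04. Relative to the all-gene median HES4 stood at 1.24 as deposited and at 1.18 with that scaling. As deposited, HES1 and HEYL stood at 0.86 and a bound of 0.80, and the measured HES1 probe sets spanned 0.03 to 0.86. ASCL2, named after its values were seen, went the other way. It read 140 in hepatospheres and 244 in differentiated cells, a difference of -0.80 as deposited and -1.05 after median centring.

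Cell cycle inhibitor genes that E proteins are known to activate were mostly higher. CDKN2B, which encodes p15, read 798 in hepatospheres and 93.6 in differentiated cells, 8.52-fold higher. CDKN1A, which encodes p21 and is also a p53 target, read 1528 in hepatospheres and 159 in differentiated cells, 9.58-fold higher. CDKN1C, which encodes p57, was at least 3.19-fold higher, at 269 in hepatospheres and 61.4 in differentiated cells. CDKN2A, which encodes p16 and ARF, was bright on both arrays at a difference of -0.21. Of the 4, 3 were at least 2-fold higher, where 12.5% of all genes measured were, and the median was 2.38. Under poly(A) scaling 2 were, where 3.22% of all genes were, and the median was 1.48. CDKN2B and CDKN1A each rest on 1 measured probe set, and CDKN2B was near the floor of 84.1 in differentiated cells. CDKN1C reached the floor in hepatospheres alone, so the count of 3 is partly set by that filter and nothing is read from it. Its bound also enters both medians. The measured CDKN1C probe sets spanned 0.36 to 1.67. The list was chosen with earlier results known, and a part of E proteins in these differences was not tested.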

How the data were processed

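Total RNA from 2 PLC/PRF/5 cultures was extracted with Trizol per the labels' protocols, labelled with biotin and hybridised, 1 array for each group, and the source names gave the groups. The intensity values deposited are linear MAS5 signals, with MAS5 named in the submitters' processing notes and its version and scaling target not given in the sources used here. MAS5 subtracts background and mismatch brightness, which makes dim signals noisy, and scales each array globally. GEO's array annotation named the probe sets: 41091 of 54675 carried 1 gene symbol, 1801 several, 11721 none, and 62 were controls. Each of 19775 genes was represented by the probe set whose mean log2 signal was highest. The floor was the higher of the 2 arrays' 50th percentiles. The members and lists were chosen with earlier results of these data known.

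Named in the text were all members, up to 4 genes per list with the largest differences, and 9 pathway genes in any case. The rule also names 3 genes whose signals lie nearest to those of a member, which are left out because signals of different probe sets are not comparable. Markers and LUM are given as a check of the cultures, and LUM, COL3A1, FST and ASCL2 were singled out after their values were seen. No test was made, because each group has 1 array, and their number limits the precision. The fold calculation was run on known shifts put into simulated signals well above the floor on both arrays. That checks the arithmetic and does not cover signals near the floor or the bounds. Alternatives were 4 scalings (median centring, quantile, loess with span 0.3, poly(A) controls), no floor or floors at percentiles 40 and 60, adding the floor to the signal before log2, averaging probe sets, and leaving out _s_at and _x_at probe sets. Python 3.11.15 was used with pandas 2.3.3, numpy 2.4.6 and, for loess, statsmodels 0.14.6, and figures were drawn with matplotlib 3.10.9.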

Additional observations from a re-analysis of the deposited data

How the results depend on the processing

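No paired analysis was possible because each group had 1 array. The difference of each member was recomputed under 10 alternatives, of which 9 gave a value for ID1, ID2, ID3, SMAD6 and BMP4. No value was had for these 5 genes without _s_at and _x_at probe sets, since their measured probe sets all carry such names. ID1 (-2.08 to -1.04), ID2 (-2.60 to -1.49), ID3 (-2.17 to -1.12), ID4 (-6.77 to -2.95) and SMAD7 (-2.64 to -1.22) stayed at least 2-fold lower under each alternative that gave a value. BMPR2 did not reach 2-fold with log2 of signal plus floor (-0.90) and with the mean over probe sets (-0.79). BMP2 stood between -1.15 and 0.06, and turned above 0 with the mean over probe sets. BAMBI and SMAD6 passed 2-fold lower under poly(A) scaling alone, at -1.62 and -1.33. The count of members at least 2-fold lower was 6. It was 9 under poly(A) scaling, 5 with log2 of signal plus floor, 5 with the mean over probe sets, and 3 of the 5 members left without _s_at and _x_at probe sets. The count at least 2-fold higher was 1 (BMP4), and 0 after median centring, after poly(A) scaling and without _s_at and _x_at probe sets. The members' median of -1.09 became -1.34 after median centring, -1.16 after quantile normalization, -2.12 after poly(A) scaling, -0.97 with log2 of signal plus floor, -0.92 with the mean over probe sets and -1.18 without _s_at and _x_at probe sets. The share of all genes at least 2-fold lower was 8.83%, against 14.6% after median centring and 46.5% after poly(A) scaling, and the share at least 2-fold higher was 12.5%, against 3.22% after poly(A) scaling and 21.4% with no floor. Beyond what each alternative does by construction, the cause of these changes was not tested. Genes with 1 probe set (ID1, ID3, SMAD7, BAMBI and BMP4) have no second reading of their difference, and dim signals near the floor limit BMPR2, SMAD6, SMAD7 and the ID4 bound.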
